A study of Mus musculus with 12 samples.

Results

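The semaphorins, their plexin and neuropilin receptors, the Eph receptor tyrosine kinases and their ephrin ligands were examined in a mouse model of medulloblastoma. Members of these families were taken by symbol, a rule that uses no measured value. The symbols Sema3 to Sema7, Plxn, Nrp, Eph and Efn followed by the subfamily letter and number selected 53 of the 24091 genes in the table. They were 20 semaphorins, 9 plexins, 2 neuropilins, 14 Eph receptors and 8 ephrins. All 53 matched a RefSeq gene, and 46 of them were at 1 TPM or more in every sample. TPM is a transcript level scaled for gene length and for the total of each library.

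RNA sequencing was performed on 12 mouse samples in 4 groups of 3. Tumor samples were medulloblastomas from Brca2-mut;Trp53-mut mice, and the second group was cerebellum next to the tumor of the same 3 mice, GB344, GB359 and GB370. The controls were adult cerebella that the study describes as age-matched, from 3 Brca2-mut;Trp53-WT mice (GB361, GB508 and GB512) and 3 Brca2-WT;Trp53-mut mice (GB517, GB519 and GB520). Brca2-mut stands for conditional loss of the exons that encode the PALB2-binding part of BRCA2, driven by an hGFAP-Cre transgene in the developing central nervous system. Trp53-mut stands for a knockout of Trp53 in the whole animal. Both changes were thus present in tumor and adjacent tissue, and each control group carried 1 of them. No wild-type cerebellum was among the samples, and the exact age of the mice was not given in the labels.

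The groups are named as labelled. A gene-level TPM counts transcripts that lack the deleted exons, so Brca2 and Trp53 levels did not check the genotypes. Trp53 stood at 128, 124 and 130.5 TPM in the tumors, 47.1, 49.2 and 49.4 TPM in the Trp53-mut controls and 34.2, 33.1 and 37.2 TPM in the Trp53-WT controls, so that the Trp53-WT libraries had the lowest values. Defining markers of the labelled tissue were present. Tumors held 119, 244 and 319 TPM of the granule progenitor factor Atoh1, which did not exceed 0.212 TPM in any control. Adjacent cerebella GB344, GB359 and GB370 held 59.4, 50.5 and 4.997 TPM of Atoh1, all above the controls and least so in GB370. Results that rest on the adjacent tissue are also given from GB370 alone, although its summed progenitor markers (102 TPM) exceeded those of every control too. The summed markers of choroid plexus, the epithelium that secretes cerebrospinal fluid, were at 880.1, 20.1 and 24.5 TPM in the Brca2-mut;Trp53-WT controls and 4085, 5196 and 3973 TPM in the Brca2-WT;Trp53-mut controls. Results against controls are therefore also given with GB508 and GB512 alone. In bulk tissue, fewer cells of a type and less RNA per cell cannot be told apart.

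Semaphorins are secreted or membrane-bound ligands that steer axons and migrating neurons through plexins, and the secreted class 3 members bind neuropilins as co-receptors. Ephrins are tethered to the membrane by a lipid anchor (ephrin-A) or a transmembrane segment (ephrin-B) and signal to Eph receptors on neighboring cells, with a return signal into the cell that carries the ephrin. In the developing cerebellum both systems act on granule cell progenitors, the dividing cells of the external germinal layer, as they leave the cell cycle and migrate inward.

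Tumors were first compared with the 6 control cerebella. Of the 53 genes, 11 were higher and 20 were lower in tumors, and 22 were not called. A call required an adjusted p under 0.01 and at least a 2-fold difference, that is, 1 on the log2 scale, in a limma fit over all 16241 genes tested. Of all those genes, 14.4% rose and 21.5% fell by the same rule. Over the 53 genes the log2 fold change had a median of -0.14, and over all genes -0.11. Both directions occurred among the ligands and among the receptors: 2 semaphorins rose and 8 fell, 3 plexins rose and 3 fell, 4 Eph receptors rose and 6 fell, and 2 ephrins rose and 3 fell. Neither neuropilin was called. With GB508 and GB512 as the only controls, an alternative chosen after the marker levels were seen, 6 were higher (Efna4, Sema6a, Plxnb2, Ephb2, Efnb1 and Plxna3) and 12 lower (Plxna4, Epha10, Epha4, Sema3a, Sema6b, Sema5a, Epha6, Sema6d, Epha1, Sema4a, Ephb1 and Epha5). In that fit 2003 of all 16241 genes were higher and 2838 lower. Both of these controls were Brca2-mut;Trp53-WT, so the fit also left out the other control genotype and had fewer samples. Lost calls can therefore not be assigned to choroid plexus. Quantile normalization moved the median of all genes from -0.11 to 0.04 and left the direction of each of the 31 called genes as it was. It ended the calls of Efna3, Efnb2, Plxna1, Sema4d, Epha5 and Plxnb3, of which median-of-ratios scaling ended the first 4.

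**Figure D1:**
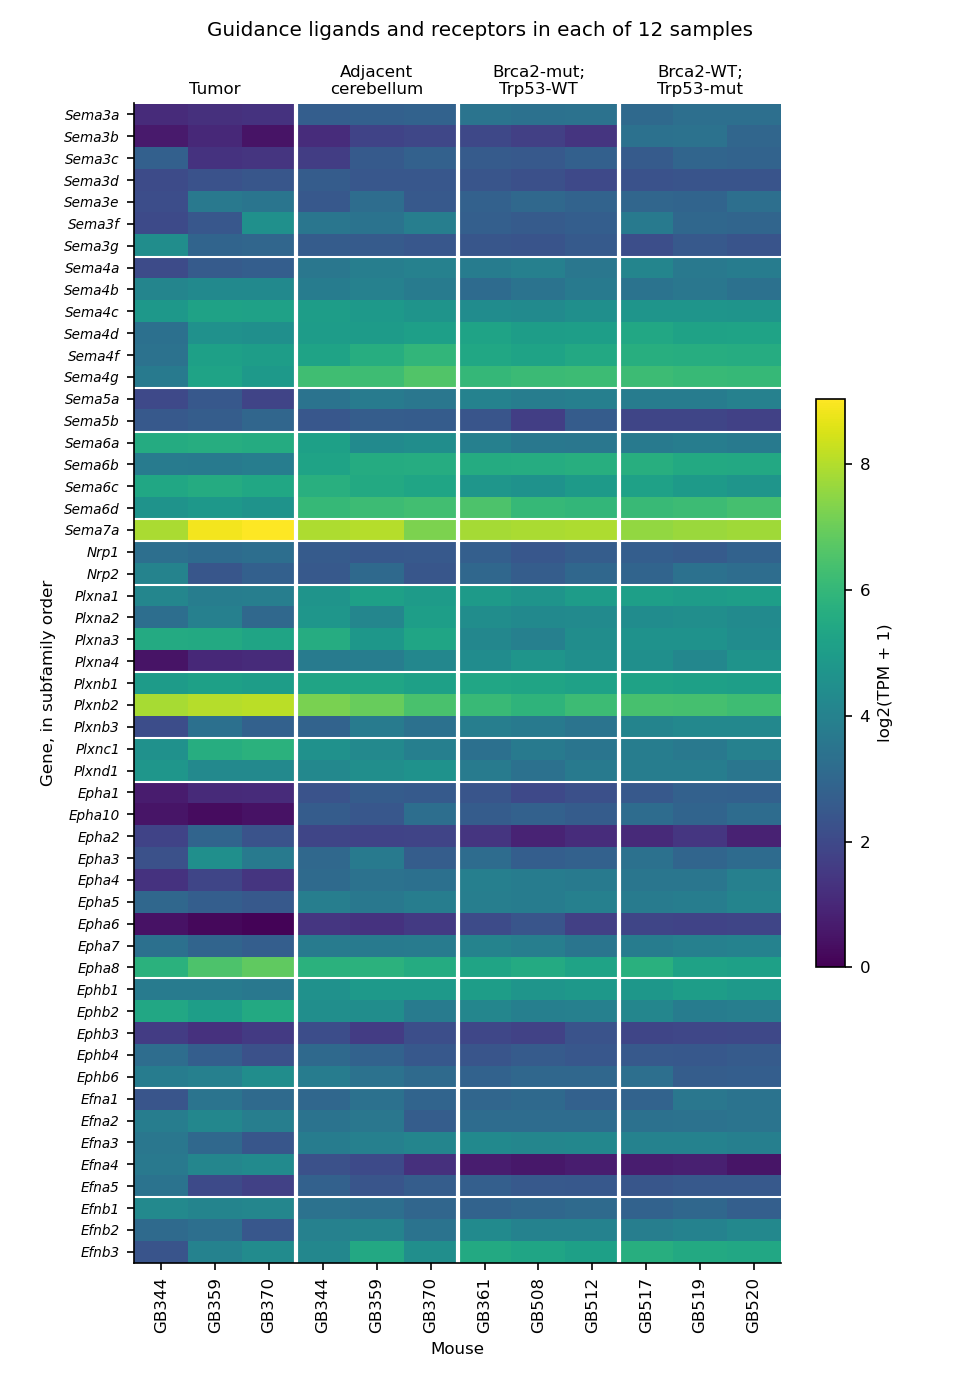
Level of each of the 53 genes (rows, in subfamily order) in each of the 12 samples (columns, named by mouse), shown as log2(TPM + 1) by color. Sema7a and Plxnb2 are the brightest rows in the tumors, and Efna4 is dark in all 6 controls and brighter in the 3 tumors.

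**Figure D2:**
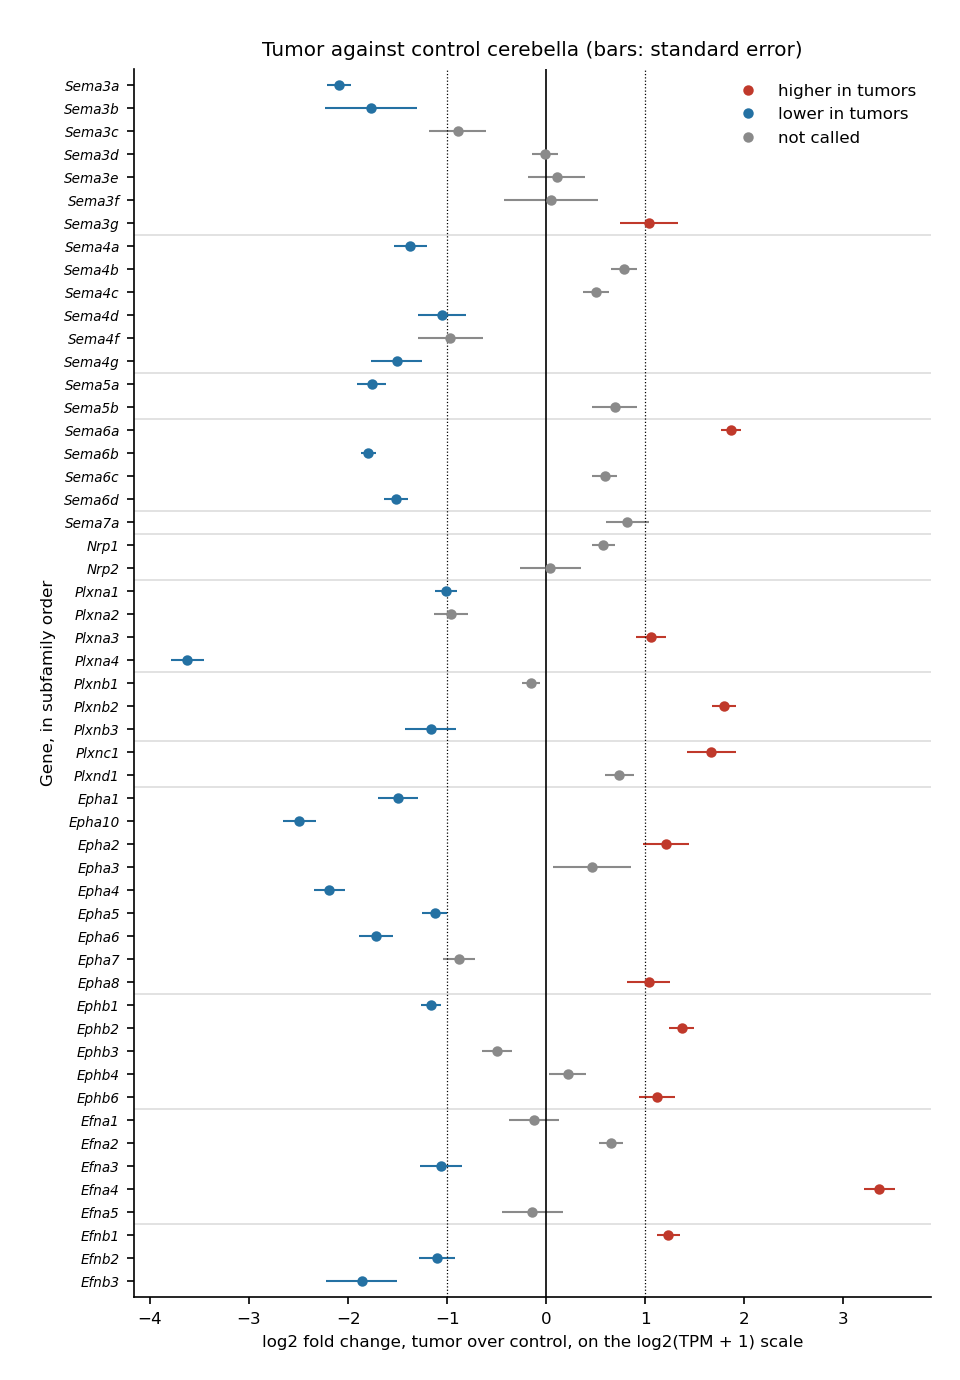
The log2 fold change of tumor over control for each of the 53 genes, on the log2(TPM + 1) scale, with the standard error as a bar and dotted lines at -1 and 1. Red points are the 11 genes called higher, blue points the 20 called lower and grey points the 22 not called; Efna4 and Plxna4 lie farthest from 0 on either side.

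Values of tumors are given in the order GB344, GB359 and GB370, and those of the 6 controls as the lowest, the median and the highest. Fold changes are on the log2(TPM + 1) scale, which understates changes of genes with low levels. Where a call between tumors and controls was lost or gained when 1 sample was left out, the value without it follows.

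Class 3 semaphorins, the secreted ligands, split into 1 gene that rose, 2 that fell and 4 that were not called. Sema3a (chr5:13124822-13603485), a repellent ligand that acts through neuropilin 1 and class A plexins, was at 1.18, 1.41 and 1.499 TPM in tumors, against 7.62, 9.17 and 10.3 TPM in controls. Every tumor lay below every control, and the log2 fold change was -2.10 ± 0.12 (SE, adjusted p = 1.24e-07). Sema3b (chr9:107597674-107609241) was at 0.562, 1.04 and 0.381 TPM in tumors, against 1.66, 4.88 and 9.68 TPM in controls, with a log2 fold change of -1.77 ± 0.46 (SE, adjusted p = 0.006). The tumors again lay below all controls, but the control genotypes were far apart for this gene, at 2.86, 2.301 and 1.66 TPM in Brca2-mut;Trp53-WT and 9.48, 9.68 and 6.91 TPM in Brca2-WT;Trp53-mut mice. Against the Brca2-mut;Trp53-WT controls alone the log2 fold change was -0.98 and was not called. Without tumor GB344, GB359 or GB370, or without control GB517 or GB520, the adjusted p of Sema3b was 0.0195, 0.0123, 0.0262, 0.0106 or 0.0132 and the call was lost.

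Sema3g, a ligand of neuropilin 2 known from endothelium, stood at 20.4, 6.53 and 6.83 TPM in tumors, against 3.56, 4.24 and 4.91 TPM in controls, with a log2 fold change of 1.04 ± 0.29 (SE, adjusted p = 0.00898). All tumors were above all controls, yet the size of the difference came from tumor GB344. Without that tumor the log2 fold change was 0.54 and Sema3g was not called, and its call was also lost on leaving out any single control, with adjusted p between 0.0133 and 0.0188. Sema3f, a ligand of neuropilin 2, was at 3.096, 4.48 and 22.1 TPM in tumors against 5.11 to 11.9 TPM in controls, so that tumor GB370 lay above all controls and the other tumors below them. Sema3c was at 5.81, 1.49 and 1.604 TPM against 4.81 to 6.64 TPM, with a log2 fold change of -0.89 ± 0.29 (SE) that passed the call only without tumor GB344 (-1.36). Sema3d and Sema3e, the latter a direct ligand of plexin D1, had log2 fold changes of -0.014 and 0.10 and were not called.

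Class 4 semaphorins are transmembrane ligands, several of which bind class B plexins. None of the 6 rose, 3 fell, and the median log2 fold change was -1.01. Sema4g (chr19:44988743-45003397), with the highest level of the class in controls, was at 12.4, 36.5 and 28.7 TPM in tumors, against 64.1, 69.6 and 72.97 TPM in controls (log2 fold change -1.51 ± 0.26 SE, adjusted p = 3.62e-04). Sema4a was at 3.200, 4.98 and 5.55 TPM against 11.01, 13.04 and 16.5 TPM, a log2 fold change of -1.37 ± 0.17 (SE, adjusted p = 3.46e-05). For both genes all tumors lay below all controls, and tumor GB344 was the lowest. Sema4d, the ligand of plexin B1 also known as CD100, was at 9.13, 23.1 and 21.9 TPM in tumors, against 31.4, 36.3 and 41.9 TPM in controls, with a log2 fold change of -1.05 ± 0.24 (SE, adjusted p = 0.0028). That call depended on tumor GB344, since the log2 fold change without it was -0.64. Sema4f was at 9.58, 34.3 and 31.8 TPM against 37.01 to 50.4 TPM, with tumor GB344 again apart, and was not called (-0.97 ± 0.33 SE, adjusted p = 0.0211) except without tumor GB359 (-1.28). Sema4c had the highest tumor level of the class, at 27.1, 35.9 and 34.97 TPM against 19.2, 23.2 and 25.4 TPM in controls, and its log2 fold change of 0.50 ± 0.13 (SE, adjusted p = 0.00533) was below the 2-fold minimum. The log2 fold change of Sema4b was 0.79 ± 0.13 (SE), also below it.

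Sema5a (chr15:32244813-32696341), a transmembrane ligand of plexin B3, was at 2.99, 4.65 and 2.65 TPM in tumors, against 12.8, 13.5 and 15.2 TPM in controls. It fell, with a log2 fold change of -1.76 ± 0.15 (SE, adjusted p = 1.69e-06), and made up 81.0% of the summed class 5 level in controls. Its relative Sema5b was at 4.75, 5.401 and 6.85 TPM in tumors, against 2.24, 2.67 and 5.15 TPM in controls, the highest class 5 level in tumors, and was not called (0.69 ± 0.23 SE, adjusted p = 0.0189).

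Class 6 semaphorins, transmembrane ligands of class A plexins, moved in opposite directions. Sema6a, which with plexin A2 controls granule cell migration, was at 46.3, 48.9 and 46.8 TPM in tumors, against 11.1, 12.1 and 14.2 TPM in controls. It rose by a log2 fold change of 1.87 ± 0.10 (SE, adjusted p = 7.05e-08), and the 3 tumors were close to each other and well above all controls. Sema6b (chr17:56123085-56140343) was at 12.6, 12.3 and 13.2 TPM in tumors, against 42.7, 46.9 and 49.6 TPM in controls, a log2 fold change of -1.80 ± 0.08 (SE, adjusted p = 3.00e-08). Sema6d (chr2:124089943-124667789), a ligand of plexin A1 and the class 6 gene with the highest level in controls, was at 23.99, 27.4 and 23.9 TPM against 62.2, 71.4 and 91.7 TPM, a log2 fold change of -1.51 ± 0.12 (SE, adjusted p = 1.40e-06). Both genes were lower in all tumors than in all controls, with little spread between tumors. Sema6c, at 40.5, 46.1 and 40.9 TPM against 23.7, 27.6 and 35.1 TPM, was above all controls in each tumor, but its log2 fold change of 0.59 ± 0.12 (SE) was under the minimum. The summed level of class 6 was thus 123, 135 and 125 TPM in tumors and 148 to 178 TPM in controls.

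Sema7a (chr9:57939596-57962865), a lipid-anchored ligand of plexin C1 and integrin beta 1, had the highest TPM of the 53 genes in each of the 12 samples. It was at 237, 468 and 527 TPM in tumors, against 191, 222 and 243 TPM in controls. Tumor GB344 lay within the range of the controls, and the other tumors were above all controls. The log2 fold change was 0.82 ± 0.21 (SE, adjusted p = 0.00566), under the minimum, and 1.17 without tumor GB344, where the gene was called.

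Neuropilins, the co-receptors of class 3 semaphorins, were not called. Nrp1 was at 8.898, 7.97 and 8.68 TPM in tumors, against 4.54, 5.45 and 6.24 TPM in controls, above all controls in each tumor but by a log2 fold change of only 0.58 ± 0.12 (SE, adjusted p = 0.00115). Nrp2, the more abundant of the pair in every control, was at 15.5, 4.41 and 5.78 TPM in tumors, against 5.31, 7.16 and 9.29 TPM in controls. Tumor GB344 was above all controls and tumor GB359 below them, and the log2 fold change was 0.040 ± 0.31 (SE, adjusted p = 0.914).

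Among the plexins, the receptors of semaphorins, Plxnb2 (chr15:89155546-89182018) had the highest level. Plexin B2 binds class 4 semaphorins and is needed for the development of granule cell progenitors. Plxnb2 was at 230.2, 261 and 276 TPM in tumors, against 58.2, 73.05 and 85.1 TPM in controls, and rose by a log2 fold change of 1.79 ± 0.12 (SE, adjusted p = 2.86e-07). It made up 87.0% of the summed class B level in tumors and 59.2% in controls. Plxnb1 was at 30.2, 34.6 and 31.6 TPM against 32.3, 35.6 and 39.5 TPM, with a log2 fold change of -0.15 ± 0.09 (SE), and was not called. Plxnb3, a receptor for semaphorin 5A, was at 3.45, 9.09 and 6.06 TPM in tumors, against 10.04, 14.7 and 17.9 TPM in controls. Its log2 fold change of -1.17 ± 0.25 (SE, adjusted p = 0.00196) was called lower, and became -0.86 without tumor GB344, where the call was lost. The summed plexin level over all classes was 383, 445 and 445 TPM in tumors and 213 to 262 TPM in controls, without overlap. Most of that difference was Plxnb2, with a mean of 256 TPM of the 424 TPM in tumors and 73.3 TPM of the 239 TPM in controls. The other classes did not move as 1 family. Class A plexins summed to 59.5 to 73.1 TPM in tumors and 83.3 to 98.6 TPM in controls, and classes C and D to 48.6 to 71.97 TPM and 21.1 to 26.6 TPM.

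Plxna4 (chr6:32144543-32588192), a receptor for semaphorins 3A, 6A and 6B, had the largest fall of the 53 genes. It was at 0.392, 1.06 and 1.14 TPM in tumors, against 17.1, 21.9 and 25.4 TPM in controls, a log2 fold change of -3.62 ± 0.17 (SE, adjusted p = 3.87e-08). All tumors were near 1 TPM or below and all controls far above. Plxna1, a receptor for class 3 and class 6 semaphorins, was at 16.7, 13.3 and 13.6 TPM against 24.9, 30.98 and 33.2 TPM, also without overlap. With a log2 fold change of -1.01 ± 0.11 (SE, adjusted p = 1.74e-05) it lay at the minimum, and it fell short without tumor GB359, tumor GB370, control GB517 or control GB520 (-0.95, -0.97, -0.98 and -0.99). Plxna2, the receptor of semaphorin 6A on granule cells, was at 8.58, 14.3 and 7.27 TPM in tumors, against 18.6, 19.6 and 21.04 TPM in controls, with a log2 fold change of -0.96 ± 0.17 (SE, adjusted p = 4.50e-04); it was called without tumor GB359 (-1.22). In contrast, Plxna3 (chrX:74328290-74344689), which with neuropilin 2 forms the receptor of semaphorin 3F, was at 44.8, 44.5 and 37.5 TPM in tumors, against 14.4, 20.5 and 23.7 TPM in controls and rose, with a log2 fold change of 1.06 ± 0.15 (SE, adjusted p = 1.17e-04) that was 0.97 without control GB508.

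Plxnc1 (chr10:94790866-94945015), the receptor of semaphorin 7A, was at 22.8, 49.1 and 54.1 TPM in tumors, against 9.03, 11.7 and 14.7 TPM in controls. All tumors were above all controls and tumor GB344 was the lowest of the 3, as it was for the ligand. The log2 fold change was 1.67 ± 0.25 (SE, adjusted p = 1.47e-04). Plxnd1, the semaphorin 3E receptor, whose mean in controls (11.9 TPM) was close to that of Plxnc1 (11.8 TPM), was at 25.8, 18.1 and 17.9 TPM in tumors, against 9.32, 12.3 and 13.3 TPM in controls, below the minimum (0.74 ± 0.15 SE, adjusted p = 0.00128).

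**Figure D3:**
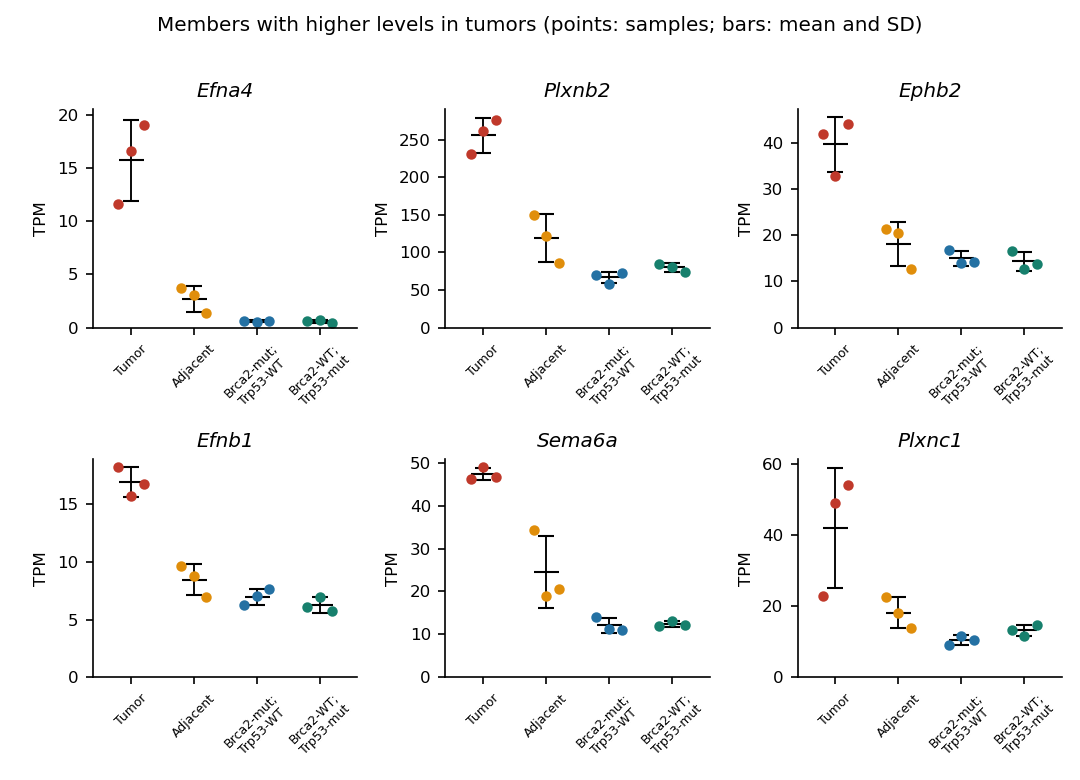
TPM of 6 genes called higher in tumors, in each sample of the 4 groups (points), with the mean and SD of each group of 3 as bars, on axes that start at 0. Each gene is higher in the 3 tumors than in any of the 6 controls, and tumor GB344 of Plxnc1 (22.8 TPM) meets its adjacent cerebellum (22.7 TPM).

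EphA receptors, which bind mainly ephrin-A ligands, included 2 genes that rose, 5 that fell and 2 that were not called. Epha4 (chr1:77367182-77515107), which binds ephrins of both classes, was at 1.52, 2.74 and 1.66 TPM in tumors, against 10.6, 12.6 and 14.3 TPM in controls, a log2 fold change of -2.19 ± 0.16 (SE, adjusted p = 6.10e-07). Epha10 (chr4:124881530-124917801), a receptor without kinase activity, was at 0.423, 0.221 and 0.3598 TPM against 5.22, 6.32 and 8.26 TPM, a log2 fold change of -2.49 ± 0.17 (SE, adjusted p = 3.46e-07). Levels of both genes were several-fold lower in each tumor than in any control. Epha6 (chr16:59641433-60610911) was at 0.374, 0.143 and 0.0544 TPM in tumors, against 2.24, 2.72 and 4.18 TPM in controls (-1.72 ± 0.17 SE, adjusted p = 6.01e-06). Epha1 was at 0.603, 1.12 and 1.16 TPM against 3.03, 4.505 and 5.99 TPM (-1.49 ± 0.20 SE, adjusted p = 6.67e-05), and Epha5 at 7.14, 5.54 and 4.796 TPM against 12.7, 13.5 and 15.9 TPM (-1.13 ± 0.13 SE, adjusted p = 1.84e-05). Again no tumor reached the lowest control for these receptors. Epha7 was at 9.06, 6.605 and 5.48 TPM in tumors, against 10.4, 13.97 and 15.5 TPM in controls, with a log2 fold change of -0.88 ± 0.16 (SE, adjusted p = 6.48e-04) that was under the minimum except without tumor GB344 (-1.05).

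Epha8 (chr4:136929419-136956859) had the highest EphA level in both tissues, at 54.4, 91.7 and 114 TPM in tumors, against 34.4, 37.5 and 52.7 TPM in controls. Its log2 fold change of 1.03 ± 0.21 (SE, adjusted p = 0.00142) was called, and it was 0.96, 0.81 or 0.99 without tumor GB359, tumor GB370 or control GB520, below the minimum. Epha2, expressed in many epithelia and tumors, was at 2.54, 6.51 and 3.96 TPM against 0.823, 1.16 and 1.71 TPM (1.21 ± 0.23 SE, adjusted p = 8.80e-04). Tumor GB359 carried much of that difference, and without it the log2 fold change was 0.93 and was not called. Epha3 was at 3.71, 21.6 and 12.4 TPM in tumors, against 5.52, 7.32 and 9.29 TPM in controls, so that tumor GB344 lay below and the other tumors above all controls. Its log2 fold change was 0.46 ± 0.40 (SE, adjusted p = 0.316) with all tumors and 1.09 without GB344, where it was called.

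EphB receptors, the main partners of ephrin-B ligands, included 2 genes that rose and 1 that fell. Ephb2 (chr4:136647536-136836326), a receptor in axon guidance and at synapses, was at 42.01, 32.9 and 44.1 TPM in tumors, against 12.8, 14.1 and 16.9 TPM in controls, a log2 fold change of 1.37 ± 0.13 (SE, adjusted p = 3.59e-06). Ephb1 (chr9:101922128-102354693) was at 12.5, 12.6 and 11.4 TPM in tumors, against 24.98, 27.9 and 32.1 TPM in controls, a log2 fold change of -1.16 ± 0.10 (SE, adjusted p = 2.53e-06). The most abundant EphB receptor was therefore Ephb1 in every control and Ephb2 in every tumor. Ephb6, which lacks kinase activity, was at 12.9, 14.2 and 20.6 TPM in tumors, against 5.34, 6.67 and 8.94 TPM in controls, and rose by a log2 fold change of 1.12 ± 0.18 (SE, adjusted p = 2.72e-04) that was 0.93 without tumor GB370. Ephb3 was below all controls in each tumor, at 2.05, 1.42 and 1.88 TPM against 2.43, 2.77 and 3.99 TPM, and was not called (-0.50 ± 0.15 SE, adjusted p = 0.0119). Ephb4, known from vascular development, had a log2 fold change of 0.22 ± 0.19 (SE) and was not called.

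Efna4 (chr3:89333393-89338028), an ephrin-A ligand, had the largest rise of the 53 genes. It was at 11.6, 16.6 and 19.1 TPM in tumors, against 0.421, 0.654 and 0.721 TPM in controls, where no sample reached 1 TPM. The log2 fold change was 3.36 ± 0.16 (SE, adjusted p = 3.98e-08). It lies on chromosome 3 beside Efna3 (chr3:89313899-89322939) and Efna1 (chr3:89271730-89280951), neither of which was called higher. Efna3, the ephrin-A ligand with the highest level in controls, was at 11.1, 7.404 and 4.405 TPM in tumors, against 14.02, 16.1 and 18.8 TPM in controls and fell, with a log2 fold change of -1.06 ± 0.21 (SE, adjusted p = 0.00116) that was -0.76 without tumor GB370. Efna1 was at 4.25, 10.2 and 7.81 TPM against 5.97 to 10.97 TPM and was not called. Efna2 was at 13.2, 17.1 and 13.7 TPM against 8.17 to 10.2 TPM, above all controls in each tumor, with a log2 fold change of 0.65 ± 0.12 (SE) under the minimum. Efna5 was at 9.82, 3.04 and 2.33 TPM against 4.38 to 5.699 TPM, above the controls in tumor GB344 and below them in the other tumors.

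Ephrin-B ligands were called in both directions. Efnb1 (chrX:99136061-99149022) was at 18.3, 15.7 and 16.7 TPM in tumors, against 5.74, 6.66 and 7.67 TPM in controls and rose, with a log2 fold change of 1.23 ± 0.11 (SE, adjusted p = 4.05e-06). Efnb3 (chr11:69554092-69561150), a midline repellent that binds EphA4 and the ephrin-B ligand with the highest level in controls, was at 4.04, 15.1 and 19.4 TPM in tumors, against 34.5, 43.00 and 49.5 TPM in controls. It fell, with a log2 fold change of -1.86 ± 0.36 (SE, adjusted p = 8.59e-04), and the tumors differed from each other by more than the controls did. Efnb2, known from arterial endothelium, was at 7.79, 8.96 and 4.55 TPM against 13.6, 15.2 and 18.9 TPM (-1.10 ± 0.18 SE, adjusted p = 2.98e-04), and -0.85 without tumor GB370, where the call was lost.

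**Figure D4:**
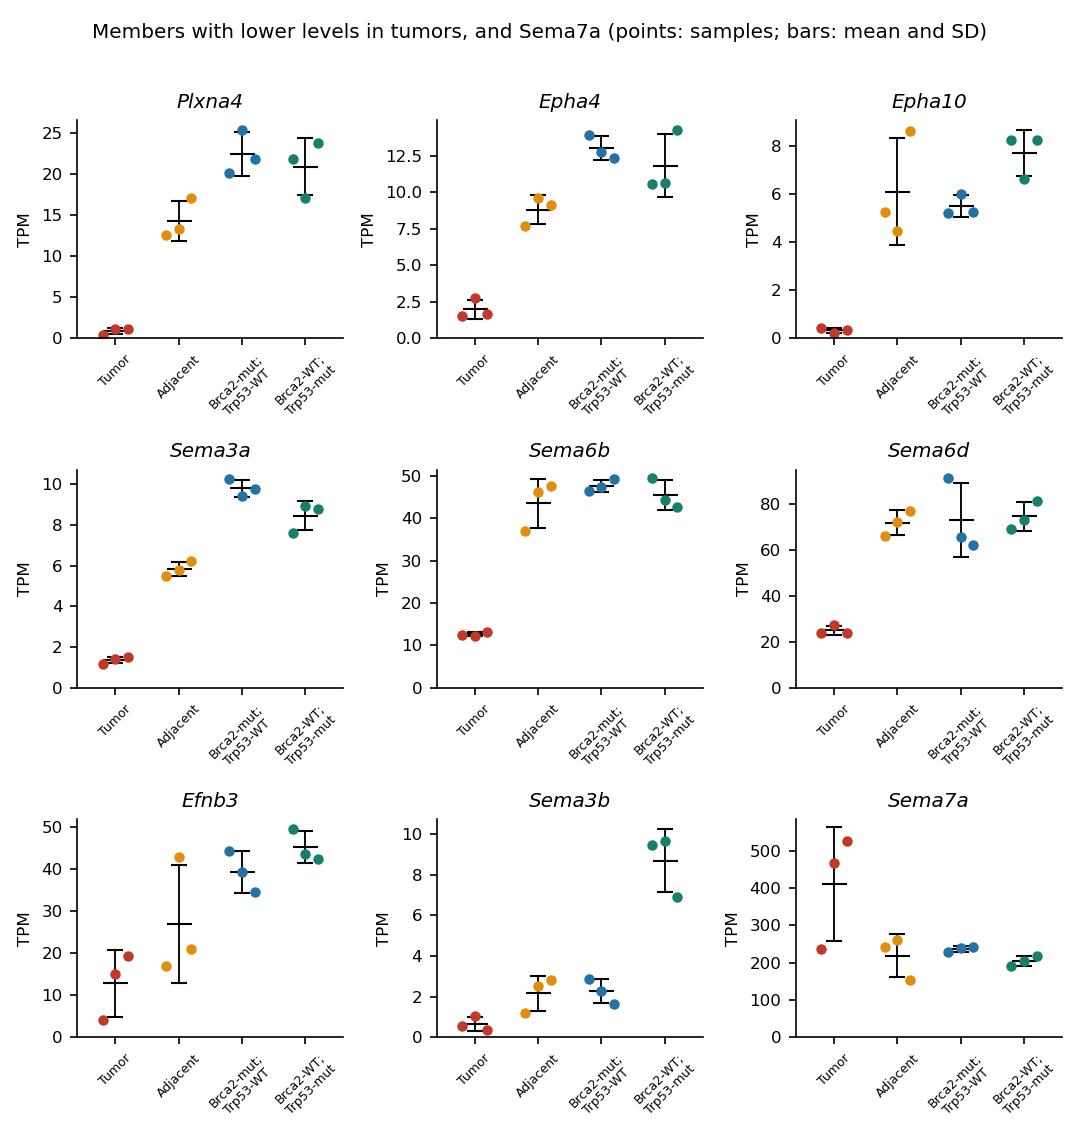
TPM of 8 genes called lower in tumors, and of Sema7a, in each sample of the 4 groups (points), with the mean and SD of each group of 3 as bars, on axes that start at 0. The 8 genes are lower in each tumor than in any control, Sema3b is lower in the Brca2-mut;Trp53-WT than in the Brca2-WT;Trp53-mut cerebella, and tumor GB344 of Sema7a lies among the controls.

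Markers of cerebellar cell types moved with these differences, and their part in them was not tested. All 8 granule progenitor markers were called higher in tumors, with a summed level of 1297 to 2752 TPM in tumors and 39.2 to 61.2 TPM in controls. All 6 markers of mature granule neurons were lower (109.5 to 384 TPM against 2541 to 3308 TPM), as were all 6 of Purkinje cells (54.5 to 280.00 against 4414 to 7454), all 5 of inhibitory interneurons (94.9 to 185 against 1945 to 2833), all 10 of oligodendrocytes (99.9 to 302 against 3379 to 5268) and 6 of 7 of astrocytes and Bergmann glia (366 to 534 against 2723 to 3756). Of the 6 endothelial markers 1 was lower and none higher (108 to 174 TPM against 110.1 to 126 TPM). Of the oligodendrocyte precursor markers 2 of 4 were higher (149 to 353 TPM against 93.5 to 173 TPM), with Pdgfra at 53.3, 172 and 193 TPM in tumors and at most 11.7 TPM in controls. Of the microglial markers 1 of 6 was higher (100.1 to 211 TPM against 99.9 to 142 TPM). The choroid plexus markers summed to 23.3 to 50.8 TPM in tumors, with 1 of 7 lower and Folr1 at 0 in tumor GB344. The meningeal and fibroblast markers summed to 146, 29.1 and 85.5 TPM in the tumors and 55.9 to 62.8 TPM in controls, with 1 of 6 higher and 2 lower. The sum was highest in tumor GB344, which also had the highest tumor values of Sema3c, Sema3g, Nrp2 and Efna5. The same held for Nrp1, Plxna1, Plxna3, Plxnd1, Epha5, Epha7, Ephb4, Efna3 and Efnb1 among others. Tumor GB344 had the lowest of Sema7a, Epha3, Sema4d and Sema4f among others, and its progenitor sum was 1297 TPM, against 2752 and 2589 TPM in GB359 and GB370. In tumor GB370, whose meningeal sum was also above all controls, Sema3c, Sema3g, Nrp2 and Efna5 were at 1.604, 6.83, 5.78 and 2.33 TPM. The part of meningeal tissue in these values was not tested. Within the meningeal and fibroblast list Col3a1 was at 60.5, 7.37 and 26.5 TPM in tumors against at most 2.75 TPM in controls, whereas Ogn and Slc6a13 lay below all controls in each tumor.

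Signaling partners of the receptors were examined as a list apart from the 53. Of 28 semaphorin partners 27 were tested, of which 5 were higher and 6 lower in tumors, beside 14.4% and 21.5% of all genes. The actin-oxidizing enzymes downstream of plexins differed among themselves: Mical1 was at 34.9, 85.2 and 125 TPM in tumors against 5.59 to 7.33 TPM in controls (3.34 ± 0.31 SE, adjusted p = 3.86e-06), and Mical2 at 13.9, 30.8 and 36.8 TPM against 112 to 164 TPM (-2.46 ± 0.26 SE, adjusted p = 9.37e-06). Crmp1 and Dpysl3, collapsin response mediators downstream of semaphorin 3A, had log2 fold changes of 1.39 ± 0.10 (SE, adjusted p = 6.25e-07) and 2.38 ± 0.20 (SE, adjusted p = 1.83e-06), whereas Dpysl2, Dpysl4 and Dpysl5 of the same family were not called (-0.30, 0.059 and 0.68). Itgb1, the integrin subunit bound by semaphorin 7A, was at 109.7, 143 and 104 TPM against 35.6 to 45.7 TPM (log2 fold change 1.504, adjusted p = 1.38e-06). Of the 20 Eph and ephrin partners 3 were higher and 9 lower. The lower ones included the exchange factors Ngef (-2.23 ± 0.19 SE, adjusted p = 1.94e-06), Tiam1 (-2.22 ± 0.23 SE, adjusted p = 8.78e-06) and Kalrn (-2.30 ± 0.22 SE, adjusted p = 5.61e-06) and the EphA4 effector Chn1 (-2.81 ± 0.22 SE, adjusted p = 1.13e-06). Vav2 (1.71 ± 0.20 SE, adjusted p = 2.01e-05), also an exchange factor, was higher, whereas its relative Vav3 was lower (-2.02 ± 0.15 SE, adjusted p = 8.22e-07). The median log2 fold change was -0.30 in the semaphorin list and -0.49 in the Eph and ephrin list, against -0.11 over all genes.

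Promoter windows were read for the 53 genes, whether or not they were called, to show the letters that precede them. RefSeq held windows of 300 bases, from 250 before to 50 after a transcript start, for 47 of the 53 genes (61 windows, GRCm38.p6). The GC box GGGCGG, searched on both strands, was in 75.4% of these windows and in 35.7% of the 32851 windows of all genes. The latter windows came from 27025 genes and were not limited to genes expressed in these samples, so the 2 shares are not from like sets. It was in 8 of the 11 windows of genes called higher, 17 of the 24 windows of genes called lower and 21 of the 26 windows of genes not called. The E-box CAGCTG, bound by ATOH1-type factors, was in 14.8% of the 61 windows and 16.3% of all. The core CCACCCA of the GLI site was in 9.84% and 9.30%. Each motif was counted on its own, neighboring matches can share end bases, and a match here is a description of the window only. The windows of Efna4 (chr3:89337979-89338278, minus strand, the largest rise), of Plxnb2 (chr15:89180739-89181038, minus strand, 1 of its 2 windows, the highest tumor level among receptors) and of Epha10 (chr4:124881535-124881834, plus strand, the largest fall with a window) are shown 5′ to 3′ with matches in capitals. Efna4 held none of the 3 motifs, Plxnb2 held 4 GC boxes, and Epha10 held 2 GC boxes and 1 E-box.
Efna4: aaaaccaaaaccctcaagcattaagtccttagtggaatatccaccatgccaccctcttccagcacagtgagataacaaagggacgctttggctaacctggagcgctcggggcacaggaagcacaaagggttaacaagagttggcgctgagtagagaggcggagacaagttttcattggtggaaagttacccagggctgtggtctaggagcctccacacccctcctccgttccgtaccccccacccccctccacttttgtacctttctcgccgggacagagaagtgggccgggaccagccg
Plxnb2: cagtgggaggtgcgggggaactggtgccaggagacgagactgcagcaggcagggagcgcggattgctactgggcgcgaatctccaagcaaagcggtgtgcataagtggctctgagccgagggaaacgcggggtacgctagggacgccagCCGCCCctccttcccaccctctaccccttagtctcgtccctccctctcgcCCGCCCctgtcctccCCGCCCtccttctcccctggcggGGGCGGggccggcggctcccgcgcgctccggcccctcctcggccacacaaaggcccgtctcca
Epha10: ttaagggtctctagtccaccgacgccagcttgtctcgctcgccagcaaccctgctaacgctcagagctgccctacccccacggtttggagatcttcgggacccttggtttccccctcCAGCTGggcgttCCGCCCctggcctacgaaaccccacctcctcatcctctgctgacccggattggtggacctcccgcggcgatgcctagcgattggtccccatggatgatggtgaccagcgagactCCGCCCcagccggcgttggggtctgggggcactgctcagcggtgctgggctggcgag

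Tumors were next compared with the cerebellum next to them. Of the 53 genes 3 were higher and 13 lower in tumors, and 37 were not called; among the 15845 genes tested 4.76% were higher and 18.0% lower. The genes that rose were Efna4, Plxnb2 and Ephb2. Scaling the libraries by median of ratios gave 5 higher and 11 lower, and quantile normalization gave 8 higher and 9 lower. Over all genes the counts moved likewise, from 755 higher and 2852 lower to 1296 and 2472, and to 1603 and 2192. With the mouse as a replicate block, since tumor and adjacent tissue came from the same animals, 1 was higher (Efna4) and 13 were lower, against 701 and 2841 of all genes. With adjacent cerebellum GB370 as the only adjacent library, an alternative chosen after the markers were seen, 1 was higher (Plxnb2) and 2 were lower (Plxna4 and Epha10), against 500 and 598 of all genes. The other 13 genes kept absolute log2 fold changes of at least 1 against this single library, with adjusted p from 0.0109 to 0.0746.

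Efna4 was at 3.74, 3.08 and 1.37 TPM in the adjacent cerebella of GB344, GB359 and GB370, below every tumor, with a log2 fold change of tumor over adjacent of 2.20 ± 0.32 (SE, adjusted p = 0.00181). Plxnb2 was at 150.02, 122 and 85.3 TPM in adjacent cerebella (1.13 ± 0.21 SE, adjusted p = 0.00521), and Ephb2 at 21.4, 20.5 and 12.7 TPM (1.11 ± 0.23 SE, adjusted p = 0.00776). The adjacent library of GB370 was the lowest of the 3 for each of these genes, as it was for Atoh1. With the replicate block the adjusted p was 0.0128 for Plxnb2 and 0.0162 for Ephb2. The call of Ephb2 was lost on leaving out any 1 of the 6 samples (adjusted p 0.0117 to 0.0296, log2 fold change 0.88 without adjacent GB370), and that of Plxnb2 on leaving out any but adjacent GB344 (log2 fold change 0.91 without adjacent GB370, and adjusted p up to 0.0211 for the others). Efna4 was called in each of these.

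The largest falls from adjacent cerebellum to tumor were those of Plxna4, Epha10, Sema4g, Epha4 and Sema6b. Plxna4 was at 12.6, 13.3 and 17.1 TPM in adjacent cerebella (-3.05 ± 0.24 SE, adjusted p = 2.18e-04), and Epha10 at 5.25, 4.45 and 8.63 TPM (-2.37 ± 0.24 SE, adjusted p = 4.91e-04). Sema4g was at 76.8, 74.2 and 95.7 TPM, above all controls (-1.75 ± 0.37 SE, adjusted p = 0.00819), and its call was lost without tumor GB370 or without any 1 adjacent sample (adjusted p 0.0192 to 0.0292). Levels of each of these were higher in all adjacent samples than in all tumors. Epha4 was at 7.72, 9.599 and 9.12 TPM (-1.74 ± 0.22 SE, adjusted p = 9.55e-04) and Sema6b at 36.9, 46.2 and 47.7 TPM (-1.69 ± 0.15 SE, adjusted p = 3.15e-04). Epha1, Sema3a, Sema6d, Sema5a, Sema4a, Epha6, Ephb1 and Epha5 also fell, with log2 fold changes from -1.56 (Epha1) to -1.03 (Epha5). Among these, leaving out adjacent GB359 ended the calls of Sema5a, Sema4a, Ephb1 and Epha5 (adjusted p 0.0125, 0.0172, 0.0139 and 0.0172), and 9 genes in all were then called. Epha5 was also lost without adjacent GB344 or GB370 or tumor GB359 or GB370, and Sema4a without adjacent GB370 or tumor GB359 (adjusted p from 0.0101 to 0.0197). Calls were gained for Plxnc1 (1.48) and Plxna1 (-1.08) without tumor GB344, for Sema6a (1.22) and Plxna1 (-1.10) without adjacent GB344, and for Sema3f (-1.38) without tumor GB370.

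Of the partners, 2 of 27 semaphorin partners were higher in tumors than in adjacent cerebellum and 5 lower, and none of 20 Eph and ephrin partners was higher and 6 lower, beside 4.76% and 18.0% of all genes. The adjacent samples held 787, 651 and 102 TPM of granule progenitor markers and 1662, 4644 and 2063 TPM of oligodendrocyte markers, and the part of either in the differences was not tested.

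Adjacent cerebella were compared with the 6 controls to ask whether tissue next to a tumor differed from cerebellum of mice without medulloblastoma. The adjacent samples carried both Brca2-mut and Trp53-mut, and each control carried only 1 of these. Nearness to a tumor and the double mutation therefore cannot be told apart here. By limma none of the 53 genes was called higher or lower. Among the 16091 genes tested 0.224% were called higher and 0.0124% lower. At an adjusted p under 0.05 with no fold minimum, 8 of the 53 were higher and 3 lower, against 10.1% and 5.57% of all genes. The 8 were Efna4, Sema6a, Plxna3, Plxnd1, Epha2, Plxnb2, Sema6c and Plxnc1, and the 3 were Plxna4, Sema3a and Epha4. Efna4 was above 1 TPM in each adjacent sample and below it in each control (1.16 ± 0.21 SE, adjusted p = 0.0135), and was called without adjacent GB370 (1.46). Sema6a was at 34.2, 19.02 and 20.5 TPM in adjacent cerebella, above all controls (0.90 ± 0.17 SE, adjusted p = 0.0149), and was likewise called without GB370 (1.003). Over all 16091 genes, 564 were called higher without GB370, against 36 with all samples. The adjacent libraries kept there, GB344 and GB359, held 787 and 651 TPM of granule progenitor markers. Efnb3, at 17.01, 42.9 and 21.01 TPM, was called lower without GB359 (-1.11).

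Adjacent levels of Plxnd1, Plxna3, Sema6c and Epha2 overlapped those of the tumors. Plxnd1 was at 17.8, 21.3 and 23.5 TPM in adjacent cerebella and 25.8, 18.1 and 17.9 TPM in tumors, against 9.32 to 13.3 TPM in controls (0.77 ± 0.13 SE, adjusted p = 0.012). Plxna3 was at 47.2, 26.5 and 38.6 TPM in adjacent cerebella (0.86 ± 0.19 SE, adjusted p = 0.0225), and adjacent GB344 was above its own tumor. Sema3a was at 5.503, 5.77 and 6.21 TPM, between the tumors and the controls without overlap with either (-0.56 ± 0.11 SE, adjusted p = 0.0164). The looser threshold depended on the libraries and the scaling: 2 genes were higher and none lower without adjacent GB344, 1 was higher and 1 lower with GB370 as the only adjacent library, none passed with GB508 and GB512 as the only controls, and quantile normalization gave 7 higher and 10 lower. This comparison shares its samples with both comparisons of tumors, so the values are set side by side only.

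**Figure D5:**
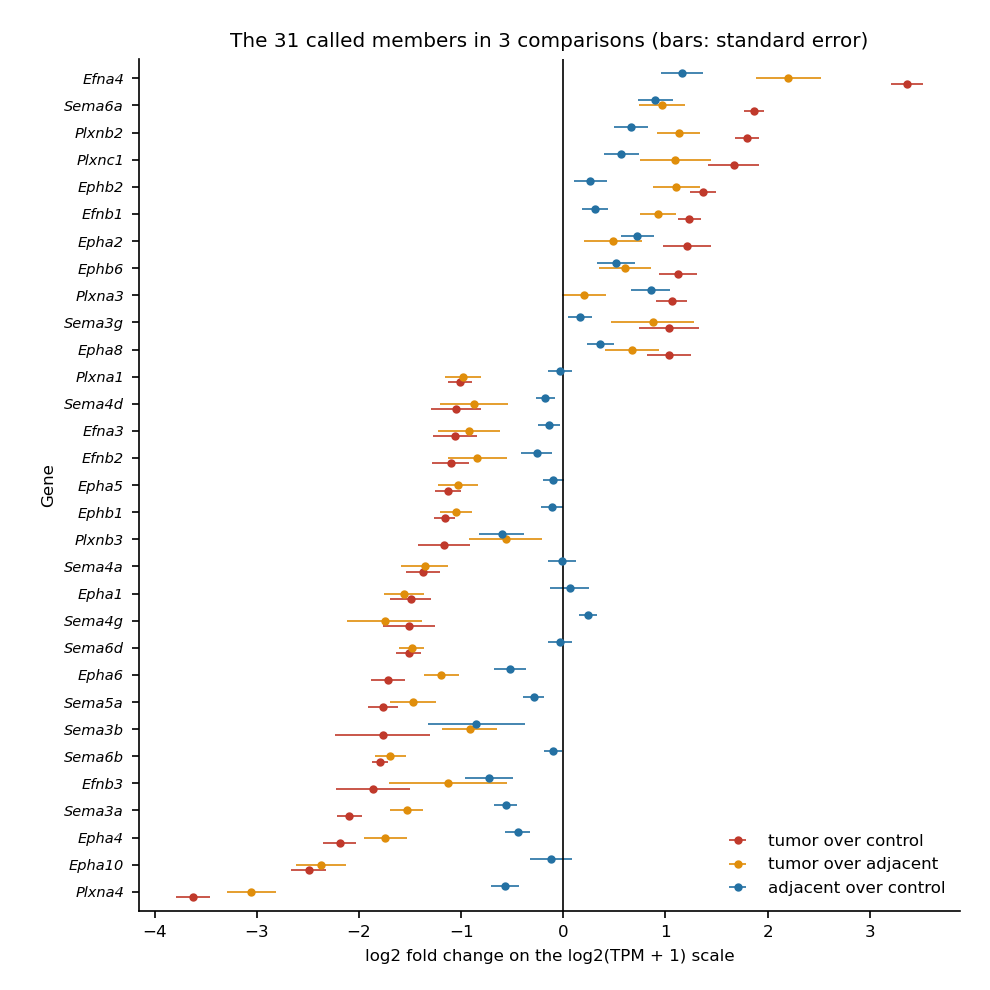
The log2 fold changes, with standard errors as bars, of the 31 genes called in tumor against control (red), in tumor against adjacent cerebellum (orange) and in adjacent cerebellum against control (blue). The comparisons share samples; Efna4 has the highest and Plxna4 the lowest tumor value, and the blue points of these genes lie at 1.16 and -0.57.

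The control genotypes were compared to ask whether their levels differed from each other. Without wild-type cerebellum, a difference cannot be assigned to Brca2 or to Trp53 loss. A change shared by both would not show. Of the 52 genes tested (Efna4 was too low) none was called by limma. Over the 15575 genes tested 0.0128% were called higher and 0.0449% lower in Brca2-mut;Trp53-WT cerebella. Sema3b had the lowest p of the 52 and was the one gene with an adjusted p under 0.05, where 0.417% of all genes were lower. It was at 2.86, 2.301 and 1.66 TPM in Brca2-mut;Trp53-WT cerebella GB361, GB508 and GB512 and at 9.48, 9.68 and 6.91 TPM in Brca2-WT;Trp53-mut cerebella GB517, GB519 and GB520. The groups did not overlap, and the log2 fold change was -1.57 ± 0.19 (SE, adjusted p = 0.0279). Without control GB508, GB517, GB519 or GB520 the log2 fold change was -1.58, -1.51, -1.49 or -1.71 and the adjusted p rose to 0.0929, 0.0924, 0.104 or 0.0556. Choroid plexus markers differed in the same direction between these groups, with the sums given above, and GB361, with 880.1 TPM of them, had the highest Sema3b of its group. Their part in the difference of Sema3b was not tested. Plxnb3 was at 13.6, 12.4 and 10.04 TPM and 15.8, 17.8 and 17.9 TPM in the same order of groups, also without overlap, and did not pass (-0.49 ± 0.12 SE, adjusted p = 0.112).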

How the data were processed

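RNA was sequenced from 12 mouse samples after library preparation with the NEB Ultra II kit. Transcript levels were estimated by the authors with Salmon 0.8.1 on the mm10 knownGene models, summed per gene and deposited as TPM, and each sample's column sums to between 999793 and 999876. Of that sum, Mir6236 alone took from 4.25% to 11.5%, depending on the sample. Differences in that share shift the TPM of all other genes. The deposited TPM are normalized for depth and length, so read depth could not be recovered and no counting interval was computed. The count table behind the DESeq2 comparisons the study describes was not used here, and no column of the table was left unused (0 columns).

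TPM were transformed as log2(TPM + 1), and a gene entered a comparison if 3 or more of its samples reached 1 TPM. The test was limma 3.58.1 (moderated test, two-sided, intensity trend) in R 4.3.3. P-values were adjusted over all genes tested by the Benjamini-Hochberg method, and genes were called where adjusted p was below 0.01 and the groups differed by 1 or more on the log2 scale. The comparisons were tumor against control, tumor against adjacent cerebellum, adjacent cerebellum against control, and the control genotypes. Groups followed the sample labels, and each sample was a separate mouse except that tumor and adjacent cerebellum shared 3 mice. Deviations of tumor and adjacent samples of one mouse from their group means correlated at 0.249 (GB344), 0.176 (GB359) and 0.152 (GB370) across genes, so the mouse was used as a replicate block in an alternative. Median-of-ratios and quantile scaling, pseudocounts of 0.1 and 0.01, no filter, a minimum of 5 TPM, no intensity trend, 1 fit over 4 groups, an adjusted p under 0.05, each control genotype alone and leaving out each sample were also tried. Scripts were tested on simulated data.

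Which gene families and lists to examine was chosen with earlier results of these data known, while membership followed from symbols. Any of the 53 genes could be named. Full statistics were due to the 10 largest called changes in each direction between tumor and control, the 5 largest in the other comparisons, the most abundant gene of each subfamily, and the members of these families in gene lists that the study clustered on these samples. Coordinates and promoter windows are from RefSeq, GRCm38.p6. Figures were drawn with matplotlib 3.10.9.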

Additional observations from a re-analysis of the deposited data

Results flagged for a closer look

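Of the 53 genes, 3 had 1 control cerebellum far from the other 5, where chance alone picks out about 1 in 20 groups. Sema3f was at 11.9 TPM in Brca2-WT;Trp53-mut control GB517, and the next control was at 7.03 TPM. Ephb3 reached 3.99 TPM in Brca2-mut;Trp53-WT control GB512, against 2.94 TPM in the next control. Efna5 reached 5.70 TPM in Brca2-mut;Trp53-WT control GB361, against 4.80 TPM in the next. None of these genes was called between tumors and controls, and the cause of the high values was not tested.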

How the results depend on the processing

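Over 338 values of the 31 genes called between tumor and control under other settings of the same threshold, 300 kept direction and call, 38 lost the call and none changed direction. With 1 sample left out, 253 of 279 values kept the call. Counts of called genes were 25 to 31 in all with 1 sample left out (9 to 12 higher, 16 to 20 lower), and 18 (6 higher, 12 lower) with only controls GB508 and GB512. At an adjusted p under 0.05 with no fold minimum, 19 were higher and 25 lower, against 5165 and 6408 of all genes. Efnb3, Epha8, Sema4d and Sema3g lost their calls against either control genotype alone, Efna3 and Plxna3 against Brca2-WT;Trp53-mut controls alone (-0.94 and 0.88), and Plxna1, Plxnb3 and Sema3b against Brca2-mut;Trp53-WT controls alone (-0.93, -0.92 and -0.98).

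In tumor against adjacent cerebellum, called genes numbered 9 to 16 with 1 sample left out (1 to 3 higher, 8 to 14 lower). Over all genes 189 to 913 were then higher and 2167 to 2674 lower. At an adjusted p under 0.05, 26 of the 53 passed (7 higher), and so did 50.4% of all 15845 genes (2870 higher, 5110 lower). With adjacent GB370 alone, the lone sample is assumed to vary like the tumors. Median-of-ratios scaling gave 5 higher and quantile normalization 8. The paired fit with the mouse as a replicate block gave 1 higher. Between adjacent cerebella and controls none was called with all samples, and 0 to 2 were with 1 sample left out (0 to 2 higher, 0 to 1 lower). Of all 16091 genes, 564 were higher and 22 lower without adjacent GB370, where the 2 higher calls arose. Without adjacent GB359, where the lower call arose, 11 were higher and 29 lower. At the looser threshold, an adjusted p under 0.05 with no fold minimum, 11 passed with all samples (8 higher, 3 lower), against 1627 and 897 of all genes. With 1 sample left out 2 to 15 passed, and counts over all genes were not taken there. Between the control genotypes none was called with all samples or with 1 left out (0). At the looser threshold 1 gene passed (1 lower), which held without GB361 or GB512 and not without another sample, nor without the filter on low values. The subsets GB508 with GB512 and adjacent GB370, and the looser threshold with samples left out, were chosen after seeing the data.

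Directions between tumor and control changed for 8 genes that were not called. Efna1 was at 0.078 under quantile normalization, 0.045 against Brca2-mut;Trp53-WT controls alone, 0.056 against GB508 and GB512, and -0.37 to 0.18 with 1 sample left out. Sema3d was at 0.077 under median-of-ratios scaling, 0.18 under quantile normalization, 0.048 against Brca2-mut;Trp53-WT controls, 0.14 against GB508 and GB512, and -0.095 to 0.084 with 1 sample left out. Efna5 was at 0.062 under quantile normalization, and Nrp2 and Sema3f at -0.10 and -0.22 against Brca2-WT;Trp53-mut controls alone. Ranges with 1 sample left out were -0.66 to 0.19 for Efna5, -0.44 to 0.36 for Nrp2, -0.71 to 0.54 for Sema3f, -0.042 to 1.09 for Epha3, -0.036 to 0.46 for Ephb4 and -0.17 to 0.58 for Sema3e. The cause was not tested. TPM carry no read counts, so depth sets no stated limit for low genes such as Epha6 and Epha10.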
